A study of Mus musculus with 2 samples.

Results

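The genes described here are 9 integrin subunits and Cd44, the surface receptors with which cells of the monocyte and osteoclast lineage hold on to matrix and to other cells. They were taken by name from the gene list that both count matrices share: Itgb3, Itgav, Itgb5, Itgam, Itgax, Itgb2, Itgb1, Itga4, Itga5 and Cd44, 10 of 32285 genes, and all 10 were found. Their levels, and the shares of cells in which they were seen, were set side by side between a DHT library and a Vehicle library. Marrow of a wild-type male C57BL/6J mouse aged 3 months was grown for 48 h in hormone-depleted medium that held 5 ng/mL of M-CSF, on which cells of the monocyte lineage depend. In a second step of 24 h the medium held 30 ng/mL of RANKL, which drives osteoclast formation, 10 ng/mL of human TNF and 100 ng/mL of M-CSF. The DHT culture held 1 nM 5α-dihydrotestosterone, an androgen, in both steps, and the Vehicle culture held the same volume of ethanol. Cells still attached at the end were loosened with EDTA, scraped off and sequenced as 1 droplet library per group (10x Genomics 3′ chemistry). Cells that had not attached were thus not collected. The labels call the cells osteoclast precursors.

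An integrin is a pair of an alpha and a beta subunit, and the pair decides the ligand. Itgav pairs with Itgb3 to form the vitronectin receptor, by which mature osteoclasts form the sealing zone on bone, and with Itgb5, the partner found on osteoclast precursors and macrophages. Itgam (CD11b) and Itgax (CD11c) each pair with Itgb2 (CD18) on leukocytes and bind complement fragments, fibrinogen and ICAM proteins, and Itgam is the usual surface marker of myeloid cells. Itga4 pairs with Itgb1 to bind VCAM-1 and fibronectin, and Itga5 pairs with Itgb1 as the classical fibronectin receptor. Cd44 is no integrin: it binds hyaluronan and osteopontin and is anchored to actin through ezrin, radixin and moesin.

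Itgam and Itgax lie next to each other on chromosome 7, 11055 bases apart, yet had unlike patterns over the classes of cells described below, and the level of Itgav was highest in osteoclast-like cells. For these 3 genes the stretch from 250 bases before to 50 after the transcription start is shown, as given by RefSeq for GRCm38.p6, plus strand, for chr7:128062390-128062689 (Itgam), chr7:128129300-128129599 (Itgax) and chr2:83724147-83724446 (Itgav). Capitals mark the letters GAGGAA, the core bound by the myeloid factor PU.1, or their reverse complement in Itgam and Itgav, and the AP-1 site TGANTCA in Itgax.
Itgam: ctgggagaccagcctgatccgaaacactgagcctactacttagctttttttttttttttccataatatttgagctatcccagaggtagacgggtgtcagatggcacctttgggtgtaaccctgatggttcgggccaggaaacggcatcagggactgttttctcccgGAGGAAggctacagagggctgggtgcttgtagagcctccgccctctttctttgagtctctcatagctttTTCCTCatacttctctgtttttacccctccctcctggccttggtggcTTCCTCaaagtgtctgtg
Itgax: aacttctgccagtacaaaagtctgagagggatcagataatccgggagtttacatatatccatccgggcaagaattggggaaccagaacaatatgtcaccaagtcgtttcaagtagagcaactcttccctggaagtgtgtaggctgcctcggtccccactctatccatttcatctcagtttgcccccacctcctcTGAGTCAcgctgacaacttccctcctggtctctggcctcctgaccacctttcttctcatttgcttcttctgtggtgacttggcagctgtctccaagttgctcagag
Itgav: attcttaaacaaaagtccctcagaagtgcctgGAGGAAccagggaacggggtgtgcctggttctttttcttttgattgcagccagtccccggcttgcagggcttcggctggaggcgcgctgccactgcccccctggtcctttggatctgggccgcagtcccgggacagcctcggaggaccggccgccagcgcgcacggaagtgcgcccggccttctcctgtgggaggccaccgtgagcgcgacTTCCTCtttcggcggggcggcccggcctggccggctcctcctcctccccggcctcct
GAGGAA was read on 1 plus-strand and 2 minus-strand positions of the Itgam window and on 1 and 1 of the Itgav window, and it was not in the Itgax window, where TGANTCA was found once on both strands. Over all 32851 windows of the same length, either strand, 28.3% held GAGGAA, 7.81% held TGANTCA, 35.7% held the GC box GGGCGG and 19.0% held AGAACA, the half-site of the androgen receptor. AGAACA was read once in the Itgax window and once in the Itgb1 window. GAGGAA was also read in the Cd44, Itgb1 and Itga5 windows, so it was not particular to Itgam and Itgav. None of the 8 members with a window (all but Itgb3 and Itgb2) held the full androgen palindrome, which 0.00913% of windows held. None held an ISRE-type repeat of interferon response genes, which 3.44% held. A match of letters is not a bound site.

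Counted molecules (UMIs) came to 319430510 over 10798 barcodes in the DHT library and to 453802415 over 10630 in the Vehicle library, and 33 barcodes occurred in both. Both libraries carry the same batch entry in the labels. Filters left 7708 DHT cells with a median of 30133 UMIs and 8590 Vehicle cells with a median of 50833.5. With 1 library per group no difference can be tested or checked against replicates. Levels are CPM, the UMIs of a gene summed over cells and scaled to a common total, and their exact 95% intervals hold counting error alone. The rule for a call, higher or lower, was a difference of 1.5-fold or more in a gene with 20 CPM in 1 or both libraries. Clusters were made without the 10 genes and without interferon genes. Clusters with osteoclast markers among their 10 leading genes by fold over the median cluster (Ctsk and Atp6v0d2 in clusters 3, 5 and 14, and Acp5 in clusters 3 and 14) held 1104 DHT and 2026 Vehicle cells, which is 14.3% and 23.6% of the cells of each library. Set against all other cells, cluster 5 was led by the cycling genes Ube2c, Cenpf and Cdc20 and had no osteoclast marker among its leading genes, so its values are given apart where clusters are compared. Cluster 14 was also led by the immunoglobulin genes Igkc and Ighg1, and cluster 3 held 46.8% and 48.5% of the class. Neutrophil-like cells (clusters 6, 7 and 11) made up 22.7% of DHT but 11.7% of Vehicle cells, and macrophage-like cells (cluster 0) 12% and 13.2%. Monocyte-like, granulocyte-monocyte progenitor-like, conventional dendritic cell-like and B cell-like cells were the other classes. Cluster 9, which held 55.9% of DHT and 66.7% of Vehicle progenitor-like cells, was named monocyte-like when set against all other cells. The values of these 2 classes thus depend on how clusters were named. Clusters 1 and 2, which shared leading genes with the osteoclast-like cells but had no osteoclast marker among them, and cluster 4, with a median of 1505 and 1743 UMIs per cell in DHT and Vehicle, were left unnamed. The mix of classes thus differed between the libraries.

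Over all filtered cells, Itgam was the 1 member counted as higher with DHT, none was counted as lower, and 8 of the 10 reached 20 CPM. Of all genes that reached 20 CPM, 5.48% were counted as higher and 0.178% as lower. Itgam stood at 246 CPM in DHT cells and 161 CPM in Vehicle cells, a ratio of 1.53 (95% interval, 1.51 to 1.54). Scaling by TMM or by median of ratios put its log2 ratio at 0.55 and 0.53, under the 1.5-fold limit of the count. Itgb3 had 4.83 and 2.43 CPM, a ratio of 1.99 (1.84 to 2.16), but stayed far below 20 CPM. The remaining members differed by less. Itgav had 297 and 379 CPM in DHT and Vehicle cells (ratio 0.783), Itgb2 230 and 197 (1.17), Itgb1 202 and 209 (0.965), Itga4 113 and 126 (0.902), Itga5 91.0 and 101 (0.898), Cd44 501 and 532 (0.942), Itgb5 20.6 and 21.5 (0.957) and Itgax 5.26 and 6.02 (0.874). The median log2 ratio of the members at 20 CPM or more was -0.07, beside -0.02 for all such genes.

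These ratios moved when the mix of classes was held equal. When the DHT levels within each class were weighted by the class shares of the Vehicle library, the log2 ratio of Itgam was 0.30 in place of 0.61, and that of Itgb3 0.55 in place of 0.99. For Itgav it was 0.04 in place of -0.35, for Itgb1 0.09 in place of -0.05, for Itga5 0.03 in place of -0.15 and for Cd44 0.07 in place of -0.09. Itga4 came to -0.01 in place of -0.15. Itgb5 and Itgax lay further below 0, at -0.17 in place of -0.06 and -0.29 in place of -0.19. At the Vehicle mix no member reached 1.5-fold.

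**Figure D1:**
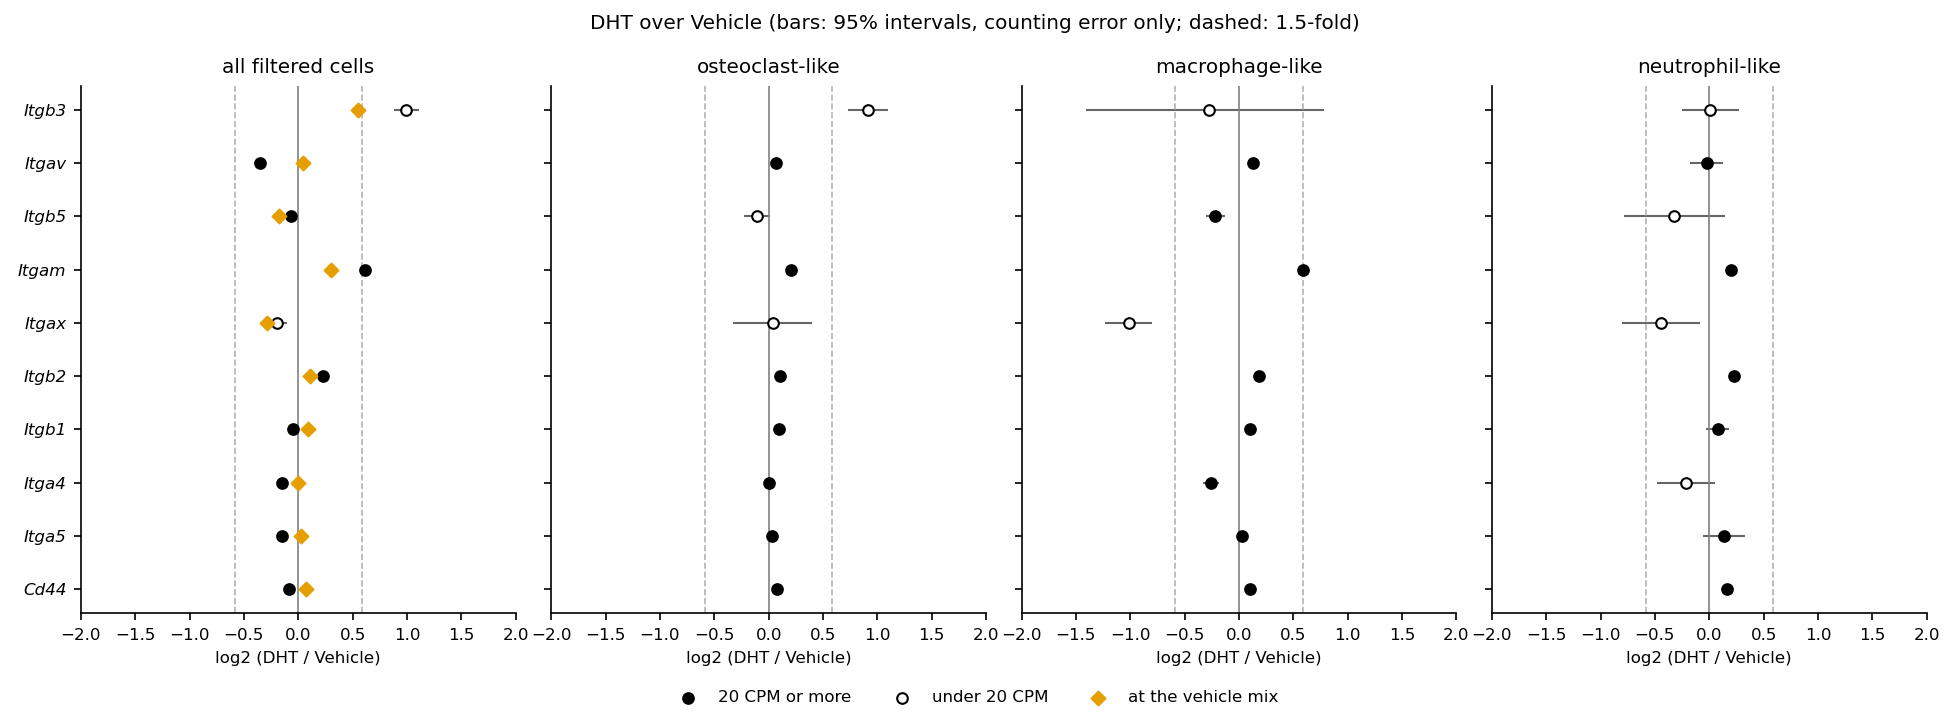
log2 ratio of DHT over Vehicle for the 10 genes in all filtered cells and in 3 classes, with 95% intervals for counting error, filled where a gene reached 20 CPM. Most filled points lie within the dashed 1.5-fold lines, with Itgam past the line in all cells and at it in macrophage-like cells, and diamonds give the all-cell ratio at the Vehicle mix of classes.

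Within classes, the count of members past the rule was small. In osteoclast-like cells 0 of the 7 members at 20 CPM or more were counted as higher and 0 as lower, where 1.04% and 0% of all genes were, and 0 passed within cluster 3, 5 or 14. In macrophage-like cells it was 0 and 0 of 8 (all genes, 3.66% and 1.57%), in neutrophil-like cells 0 and 0 of 6 (2.19% and 0.254%), in monocyte-like cells 0 and 0 of 8 (1.67% and 0.418%) and in progenitor-like cells 0 and 0 of 7 (1.07% and 0.251%). Clusters 1 and 2 had 0 and 0 of 7 each, beside 1.2% and 0.0926% of genes in cluster 1 and 1.19% and 0.11% in cluster 2. Calls stood in 3 thinly sampled groups: 1 higher and 1 lower of 9 in dendritic cell-like cells (all genes, 10.1% and 4.11%), 1 and 1 of 6 in B cell-like cells (10.3% and 7.67%) and 1 and 0 of 7 in cluster 4 (7.18% and 3.77%). Such counts of 0 or 1 in lists of 6 to 9 genes are near the shares of all genes.

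**Figure D2:**
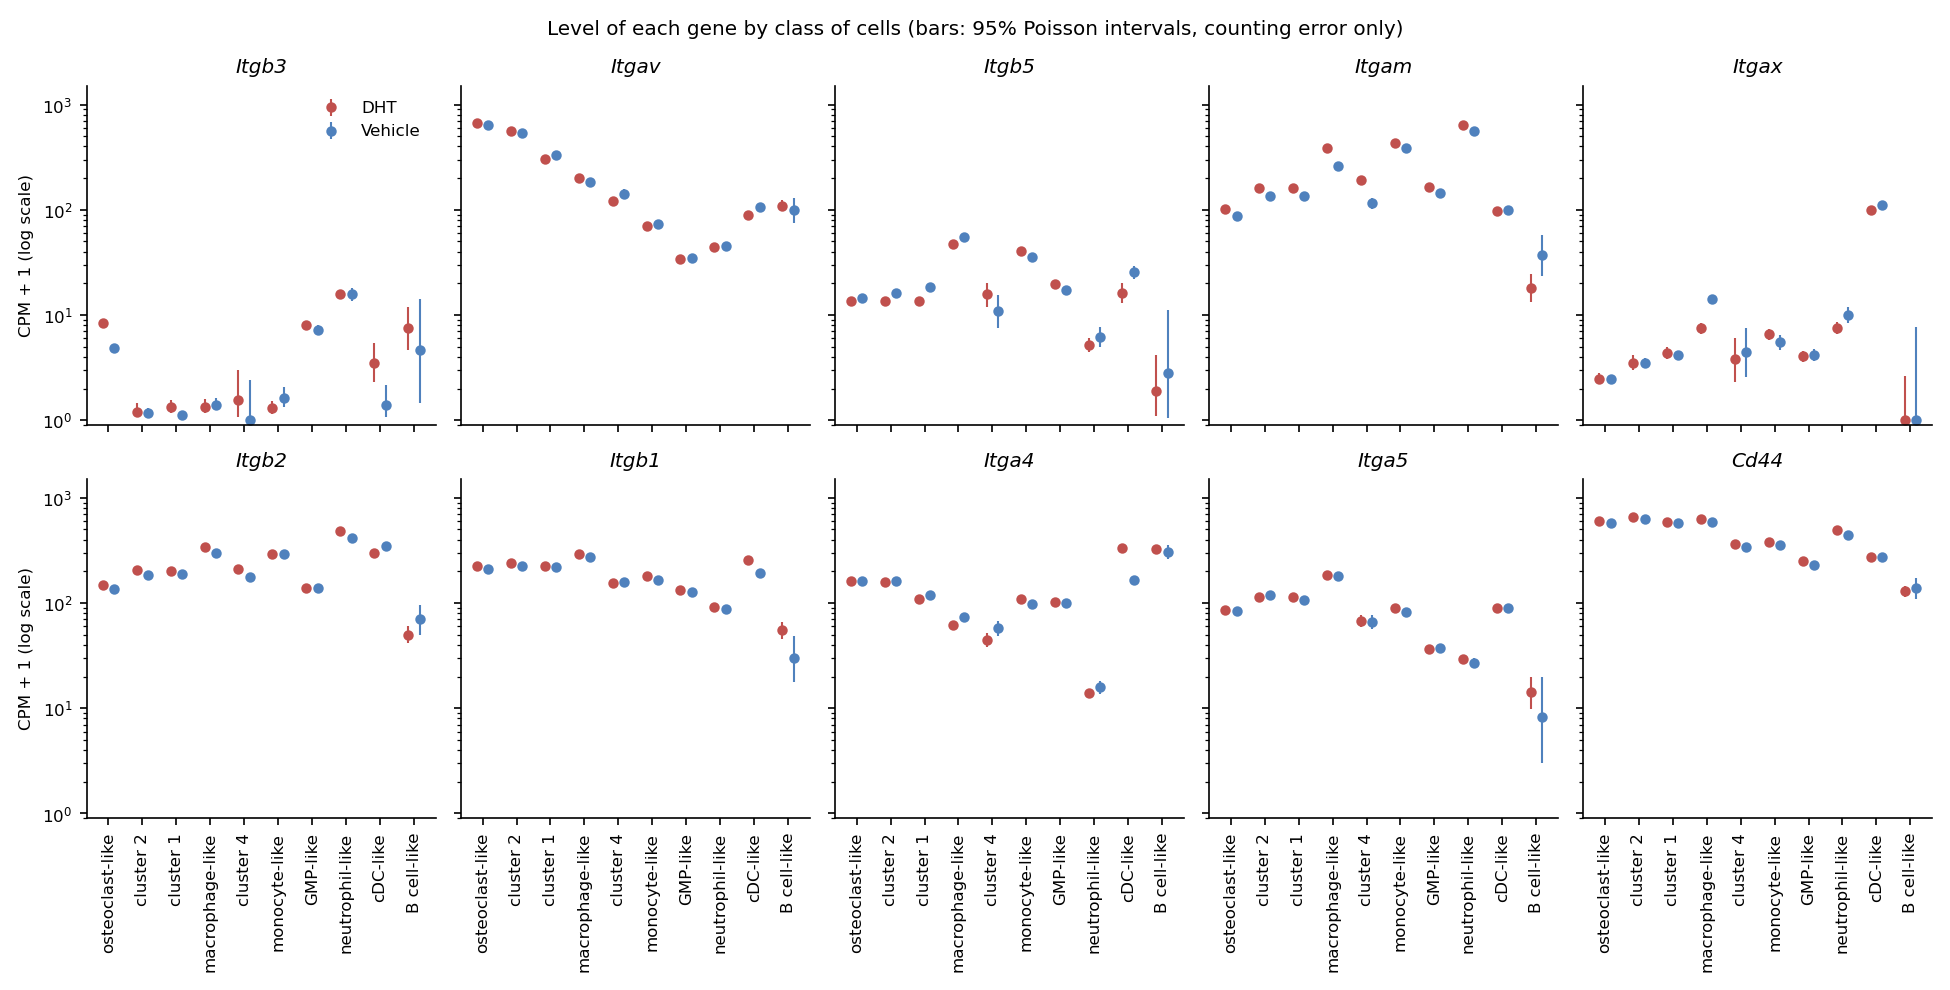
Level of each gene (CPM + 1, log scale) in 10 classes or unnamed clusters, DHT beside Vehicle, with 95% Poisson intervals that cover counting error only. Itgav, for example, spans a wider range between classes than between libraries, at 670 and 637 CPM in osteoclast-like against 43.2 and 43.9 CPM in neutrophil-like cells.

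Itgav (chr2:83724397-83806916, plus strand, GRCm38), the alpha subunit of the vitronectin receptors, was highest in osteoclast-like cells, at 670 CPM with DHT and 637 CPM with Vehicle, a ratio of 1.05 (1.04 to 1.06). Cluster 2 followed with 564 and 532 CPM, cluster 1 with 305 and 329, and macrophage-like cells with 198 and 181. The other classes lay lower, down to 32.8 and 33.9 CPM in progenitor-like cells. The order of these 4 groups was the same in both libraries, and each step between neighbours was wider than the difference between libraries within a group. Within the osteoclast-like class, cluster 3, which had the most Acp5 (tartrate-resistant acid phosphatase), held 809 and 794 CPM of Itgav, cluster 14 held 625 and 622, and cluster 5 held 519 and 455. Cluster 5 thus had the widest Itgav difference of the 3, at 1.14-fold (1.12 to 1.17). Gm13684 overlaps Itgav on the opposite strand, and whether the counting used strand is not given in the sources used here.

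The lower all-cell Itgav level with DHT stood beside the smaller share of osteoclast-like cells there (14.3% and 23.6%) and of clusters 1 (7.64% and 15.9%) and 2 (7.17% and 15%). To compare shares of positive cells, each cell was thinned to 4719 UMIs, which left 1091 DHT and 2009 Vehicle osteoclast-like cells. Itgav was seen in 90.4% and 87.4% of them, against 46.7% and 60.5% of all thinned cells. Without thinning it was seen in 99.1% and 99.4% of osteoclast-like cells. B cell-like cells, which served as a background for Itgav, gave 34.5% and 36.0% of thinned cells (290 and 50 cells, median depth before thinning 6269 and 4571.5 UMIs), so that the shares of 19.8% and 19.7% in neutrophil-like cells are not above it.

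Itgb3 (chr11:104608000-104670476, plus strand), the beta subunit that defines the osteoclast vitronectin receptor, was a rare transcript. In osteoclast-like cells it reached 7.31 CPM with DHT and 3.89 CPM with Vehicle, from 497 and 494 UMIs, a ratio of 1.88 (1.66 to 2.13). These UMIs sat in few cells: 69 of 1104 DHT cells (6.25%) and 93 of 2026 Vehicle cells (4.59%) had any. The 5 cells with the most held 342 of 497 UMIs with DHT (68.8%) and 235 of 494 with Vehicle (47.6%), and a single cell held 177 and 102. Counting intervals take molecules as independent, so for Itgb3 they are too narrow. Without the 5 top cells of each library the ratio was 1.12 (0.91 to 1.38), from 155 and 259 UMIs. Those 5 were picked by their Itgb3 UMIs and are a larger part of the 1104 DHT than of the 2026 Vehicle cells. Leaving them out thus tends to lower the DHT level more, so this ratio cannot tell whether the other cells differ. The ratio of 1.88 includes these cells, which held most of the DHT UMIs.

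The Itgb3 values of the 3 osteoclast-like clusters rest on few cells as well. Cluster 3 had 14.1 CPM with DHT and 5.98 CPM with Vehicle, with positive cells at 8.70% and 6.82%, and its 5 top cells held 74.5% and 45.0% of the UMIs. Cluster 14 went the other way, at 3.92 and 8.25 CPM, where 1 Vehicle cell held 76 of 116 UMIs. Cluster 5 had 9 and 11 UMIs in all. Without the 5 top cells of each library, a larger part of the fewer DHT cells, the ratio was 1.10 in cluster 3. It was 1.48 in cluster 5 (4 and 5 UMIs) and 1.74 in cluster 14 (10 and 11 UMIs), so that the direction in cluster 14 turned. With a limit of 5% mitochondrial UMIs, cells were clustered and named anew, and the log2 ratio of the class was 0.39 in place of 0.91. The clusters then named osteoclast-like held 683 and 1406, 576 and 1249, and 517 and 949 DHT and Vehicle cells. That class was thus wider, and the change is not one of the filter alone. After thinning, 17 of 1091 cells (1.56%) with DHT and 15 of 2009 (0.747%) with Vehicle had Itgb3, which is not above the 3.1% and 2.00% of B cell-like cells, so no difference in share is read from it.

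**Figure D3:**
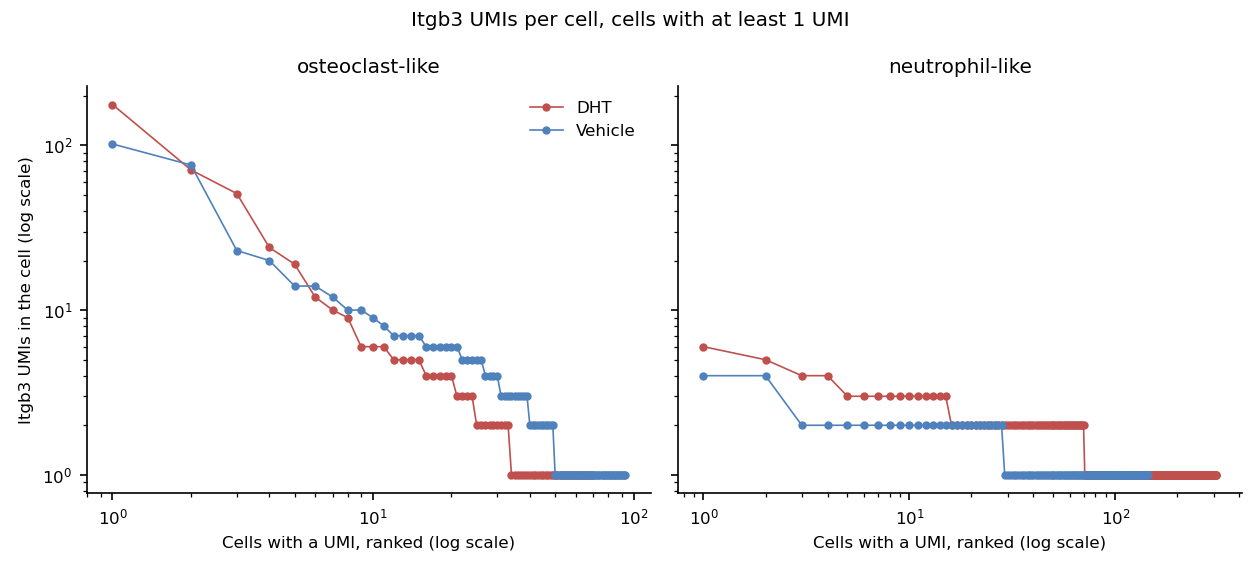
Itgb3 UMIs in each cell with at least 1, ranked from the highest, on log scales, for osteoclast-like and neutrophil-like cells. In osteoclast-like cells the counts run from 177 (DHT) and 102 (Vehicle) in the top cell down to 1, while no neutrophil-like cell exceeds 6 and 4.

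Cells with 10 or more Itgb3 UMIs were 7 of 1104 osteoclast-like DHT cells (0.634%) and 9 of 2026 Vehicle cells (0.444%). They carried abundant osteoclast transcripts: Ctsk, the collagen-degrading cathepsin K, had a median of 256 UMIs in the DHT and 299 UMIs in the Vehicle cells of this kind, against 14 and 12 in the other osteoclast-like cells. Their depth was higher too, with medians of 90064 and 100835 UMIs against 58141 and 58967. Each of them also held Itgav, with 34 to 193 UMIs in DHT cells and 60 to 215 in Vehicle cells. Itga2b, the platelet partner of Itgb3, summed to 1 and 0 UMIs in them. Pf4, which is a megakaryocyte marker and also among the leading genes of the macrophage-like cluster, was seen in 3 of the 7 DHT cells (0 to 4 UMIs) and in all 9 Vehicle cells, with 2 to 154 UMIs in the 7 of cluster 3 and 11 to 76 in the 2 of cluster 14. Ppbp and Gp9, other megakaryocyte markers, were at 0 in all of them. All of these cells lay in clusters 3 and 14, which were named by Ctsk, Atp6v0d2 and Acp5, and Itgav was seen in nearly all osteoclast-like cells. That they held these transcripts was thus largely set by the choice of cells. The other osteoclast-like cells include cluster 5, with 259 and 210 CPM of Ctsk in DHT and Vehicle, against 1121 and 1015 CPM in cluster 3.

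Neutrophil-like cells showed the opposite form of Itgb3 expression, spread thinly over many cells. Their level was 14.9 CPM with DHT and 14.8 CPM with Vehicle (ratio 1.01, 0.841 to 1.21). Cluster 7, led by the granule genes Ltf, Ngp and Camp, had 24.9 and 25.9 CPM with 213 of 693 (30.7%) and 94 of 370 (25.4%) positive cells, and no cell held more than 6 and 4 UMIs. After thinning, 6.13% and 6.44% of neutrophil-like cells were positive, against 9 of 290 (3.1%) and 1 of 50 (2.00%) B cell-like cells. Progenitor-like cells had 7.07 and 6.22 CPM, of which most came from few cells of cluster 10. In that cluster 4 DHT cells held 248 of 311 Itgb3 UMIs and 1 Vehicle cell held 178 of 203, and these cells had 16 to 260 (DHT) and 256 (Vehicle) UMIs of Itga2b and 92 to 7025 and 4685 of Pf4, markers of megakaryocytes. All-cell Itgb3 UMIs came from osteoclast-like cells for 34.7% with DHT and 47.2% with Vehicle, and from neutrophil-like cells for 28.0% and 16.8%.

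Itgb5 (chr16:33829665-33949338, plus strand), the other beta partner of Itgav, was highest in macrophage-like cells, at 46.3 CPM with DHT and 53.9 CPM with Vehicle (ratio 0.859, 0.809 to 0.912). Monocyte-like cells followed with 39.9 and 34.8 CPM. Osteoclast-like cells had 12.6 and 13.5 CPM and clusters 1 and 2 had 12.5 and 17.3 and 12.6 and 15.2 CPM, all below 20. In macrophage-like cells it was seen in 20% of DHT and 22.4% of Vehicle thinned cells, against 0.345% and 2.00% of B cell-like cells. Itgb5 was counted as lower in dendritic cell-like cells, with 15.3 and 24.6 CPM (ratio 0.623, 0.468 to 0.821), which rests on 73 and 184 UMIs.

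Itgam (chr7:128062640-128118491, plus strand), the CD11b subunit, was highest in neutrophil-like cells, at 635 CPM with DHT and 554 CPM with Vehicle (ratio 1.14, 1.11 to 1.18). Monocyte-like cells had 435 and 389 CPM, macrophage-like cells 389 and 259, progenitor-like cells 164 and 145 and osteoclast-like cells 99.9 and 86.4. The order of these 5 classes was the same in both libraries. Clusters 1 and 2 lay above the osteoclast-like cells, at 158 and 135 CPM and at 159 and 134 CPM. Within the osteoclast-like class, cluster 5 held 128 and 116 CPM, cluster 3 held 82.9 and 66.2 and cluster 14 held 67.4 and 64.7. The ratio of DHT over Vehicle was above 1 in 8 of the 10 compared groups, at 1.12 to 1.68. It was 0.995 in dendritic cell-like cells and 0.470 in B cell-like cells, where the direction rests on few Vehicle cells.

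Macrophage-like cells had an Itgam ratio of 1.5 (1.47 to 1.53), the highest of the named classes, which before rounding is just under the limit of the rule. The UMIs were spread over nearly all cells: 97.9% of DHT and 98.8% of Vehicle cells had at least 1, and the 5 top cells held 2.20% and 2.30% of the UMIs. After thinning, 78.7% and 67.9% were positive. Marker levels moved in the same class. The 10 macrophage markers, all detected, summed to 2261 CPM with DHT and 1160 CPM with Vehicle, the 8 monocyte markers, all detected, to 528 and 276, and the 10 neutrophil markers, all detected, to 1579 and 569. The cycling gene Mki67 was at 184 and 314 CPM. An estimate of free RNA was made from neutrophil, B cell and erythroid markers in osteoclast-like cells, with the sum of all barcodes as its profile. Subtracting it left the Itgam log2 ratio at 0.59, beside 0.58 without it. The part of the differing marker levels in the Itgam result was not tested.

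Cluster 4, the shallow barcodes, had 192 CPM of Itgam with DHT and 114 CPM with Vehicle (ratio 1.68, 1.46 to 1.93) and was counted as higher. There too the 10 neutrophil markers, all detected, differed in sum, at 4349 and 1436 CPM. B cell-like cells had 17.1 and 36.4 CPM of Itgam from 39 and 20 UMIs, counted as lower, beside neutrophil marker sums of 1175 CPM with DHT (9 of 10 markers detected) and 8859 CPM with Vehicle (10 of 10). Without the 5 cells with most Itgam of each library, 33 and 4 UMIs were left in B cell-like cells, and the ratio turned to 1.88 (0.667 to 7.29). Those 5 were a larger part of the 116 Vehicle than of the 340 DHT cells. In osteoclast-like cells, at 1.16-fold (1.12 to 1.19), these markers summed to 1092 and 593 CPM, and with free RNA subtracted the Itgam log2 ratio was 0.20 in place of 0.21. The summed neutrophil marker level thus differed between libraries in all 3 groups, and its part in their Itgam values was not tested. The free RNA estimate cannot test it. That estimate was 3.62% with DHT and 4.63% with Vehicle, so it was larger in the library where the marker sum of osteoclast-like cells was smaller.

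Shares of cells with Itgam depended on depth. Over all cells thinned to 4719 UMIs, Itgam was seen in 61.9% with DHT and 51.0% with Vehicle, but without thinning in 83.5% and 91.2%. The unthinned order goes against the CPM, and the Vehicle cells were deeper. B cell-like cells gave 10.0% and 12%, and neutrophil-like cells 93.6% and 92.4%.

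Itgb2 (chr10:77530252-77565708, plus strand), the beta subunit of Itgam and Itgax, followed a flatter order. It had 484 CPM with DHT and 414 CPM with Vehicle in neutrophil-like cells (ratio 1.17, 1.13 to 1.21), 341 and 300 in macrophage-like, 295 and 345 in dendritic cell-like, 291 and 292 in monocyte-like and 146 and 136 in osteoclast-like cells. Its ratios in the compared groups ran from 0.711 in B cell-like cells to 1.2 in cluster 4. After thinning, Itgam and Itgb2 were seen in the same cell in 82.8% of DHT and 77.0% of Vehicle neutrophil-like cells, in 60.3% and 50.8% of macrophage-like cells and in 18.0% and 17% of osteoclast-like cells.

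Itgax (chr7:128129547-128150657, plus strand), the CD11c subunit by which dendritic cells are often recognised, was highest in dendritic cell-like cells, at 97.8 CPM with DHT and 111 CPM with Vehicle (ratio 0.884, 0.787 to 0.991). Its neighbour Itgam was at 97.0 and 97.5 CPM in the same cells, where it was far from its own peak. Itgax and Itgb2 were seen together in 18.7% and 20.4% of thinned dendritic cell-like cells. In all other compared classes Itgax stayed under 20 CPM and it had 0 UMIs in B cell-like cells of both libraries, which allows a thinned share of up to 1.03% of 290 DHT and 6.00% of 50 Vehicle cells. Within neutrophil-like cells it was concentrated in cluster 6, at 27.4 and 37.0 CPM, against 0.975 and 1.55 in cluster 7.

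In macrophage-like cells Itgax stood at 6.47 CPM with DHT and 13.1 CPM with Vehicle, a ratio of 0.495 (0.425 to 0.574), below the level at which genes were counted. Positive cells after thinning were 2.35% and 5.61%, and 11.1% and 22.2% without it. The value depended on which cells were kept and how they were grouped, since cells were clustered and named anew under each filter. With a mitochondrial limit of 5% the log2 ratio was -0.19 in place of -1.01. The clusters then named macrophage-like held 488 and 237, and 146 and 349 DHT and Vehicle cells, against 926 and 1133 in cluster 0. A cluster of 469 and 1170 cells, led by Gpnmb and Igf1, was left unnamed. Without the 10% of cells that Scrublet scored highest, also clustered anew, the log2 ratio was -1.5. In cluster 0 Itgam and Itgax, neighbours on the chromosome with a common partner, thus had ratios on opposite sides of 1.

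Along the granulocyte clusters Itgam, Cd44 and Itga4 differed in steps, taken here from cluster 10 (led by Elane, Prtn3 and Mpo, primary granule genes), through cluster 11 (Camp, Ngp, with Mki67 at 846 and 736 CPM) and cluster 7 (Ltf, Ngp), to cluster 6 (Retnlg, Il1b). Itgam read 123, 370, 730 and 891 CPM in DHT cells and 138, 316, 617 and 865 CPM in Vehicle cells. Cd44 read 159, 251, 462 and 947 CPM with DHT and 143, 208, 389 and 926 CPM with Vehicle. Itga4 ran the other way, at 82.2, 23.1, 7.09 and 6.81 CPM with DHT and 77.8, 25.8, 7.98 and 7.47 CPM with Vehicle. Itgav was nearly level over the first 3, at 28.5, 33.8 and 32.2 CPM with DHT and 33.6, 31.3 and 32.8 CPM with Vehicle, and stood at 80.0 and 84.8 CPM in cluster 6. For Itgam and Cd44 both libraries gave the same order. The last step of Itga4 rests on few UMIs: without the 5 cells with most of it, cluster 7 and cluster 6 had 5.82 and 5.48 CPM with DHT but 5.18 and 5.31 CPM with Vehicle. The sequence of clusters was set by granule genes after the clusters were seen, so it is a description of clusters and not a measured time course.

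**Figure D4:**
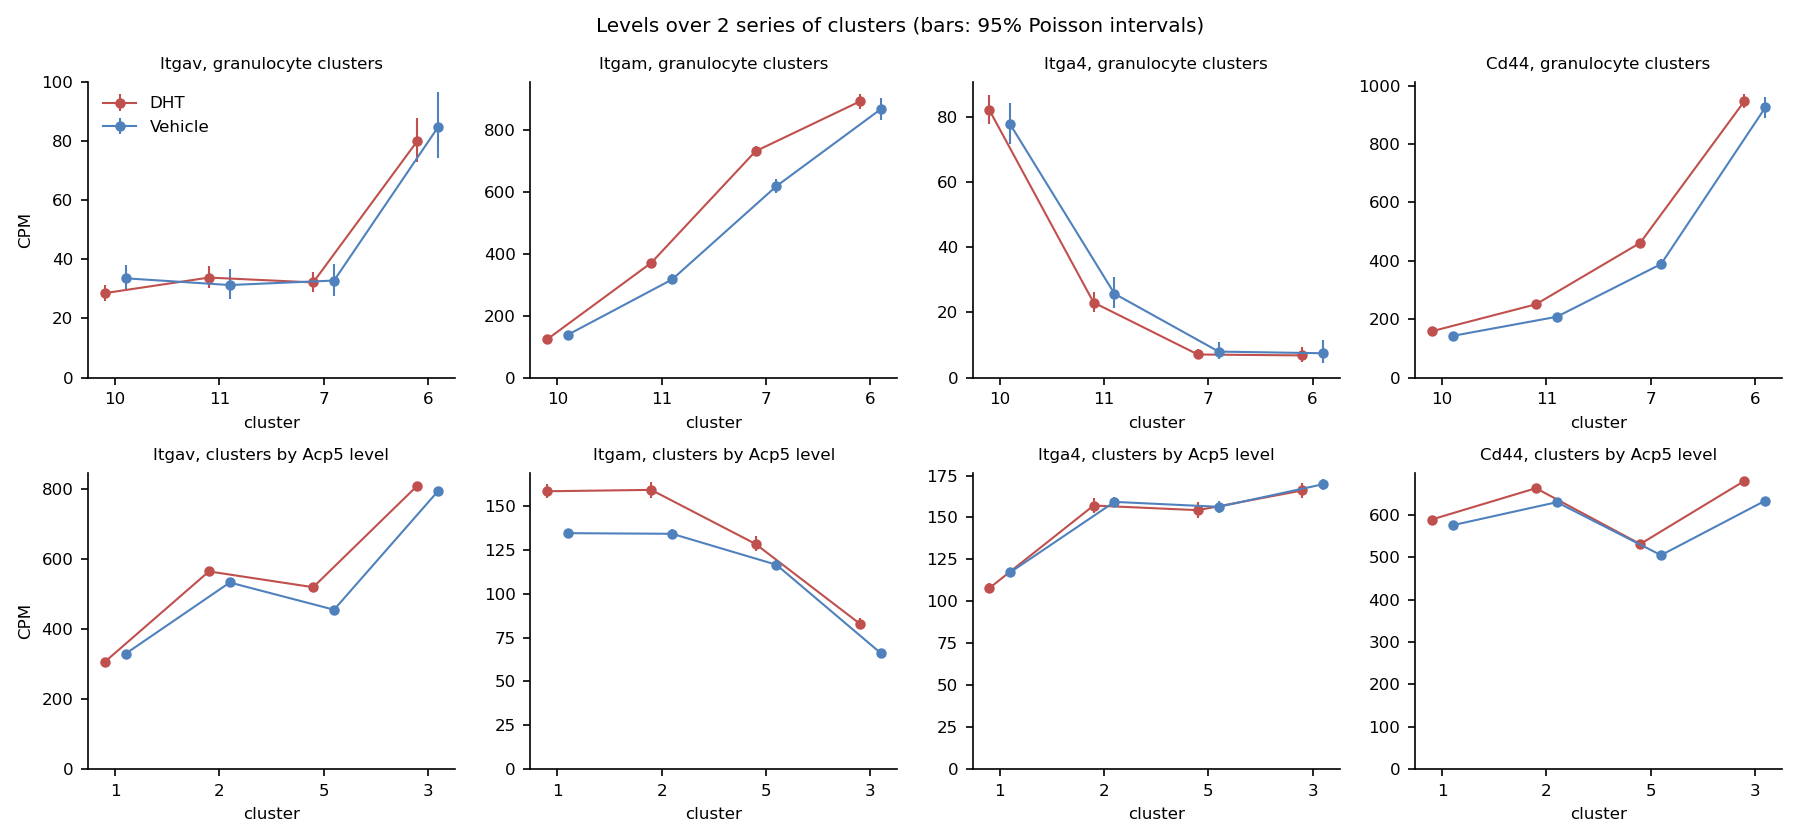
CPM of Itgav, Itgam, Itga4 and Cd44 over the granulocyte clusters 10, 11, 7 and 6 (top) and over clusters 1, 2, 5 and 3, ordered by Acp5 (bottom), DHT beside Vehicle, with 95% Poisson intervals. Itgam and Cd44 climb along the top series in both libraries and Itga4 declines over clusters 10, 11 and 7, while below Itgav is highest and Itgam lowest in cluster 3.

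A second series ran from cluster 1 through 2 and 5 to 3, ordered by Acp5 at 144, 169, 285 and 1412 CPM with DHT and 126, 137, 193 and 1227 CPM with Vehicle. Itgav read 305, 564, 519 and 809 CPM with DHT and 329, 532, 455 and 794 CPM with Vehicle. Itgam read 158, 159, 128 and 82.9 CPM with DHT and 135, 134, 116 and 66.2 CPM with Vehicle. So among these 4 clusters the alpha subunit of the vitronectin receptor was highest, and that of the leukocyte receptor lowest, where Acp5 was highest. Cd44 showed no such order, at 589, 663, 531 and 681 CPM with DHT and 576, 630, 505 and 634 CPM with Vehicle. Osteoclast-like cluster 14 was left out of this series, although its Acp5, at 1186 CPM with DHT and 1218 CPM with Vehicle, was near that of cluster 3. As given above, it had less Itgav than cluster 3 and also less Itgam. With cluster 14 included, Itgam was thus not lowest where Acp5 was highest.

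Itgb1 (chr8:128685654-128733200, plus strand), the common beta subunit of the fibronectin receptors, was highest among the compared classes in macrophage-like cells, at 290 CPM with DHT and 270 CPM with Vehicle (ratio 1.07, 1.05 to 1.10). Osteoclast-like cells had 222 and 208 CPM (1.07, 1.05 to 1.09) and neutrophil-like cells 90.8 and 86.1. In dendritic cell-like cells it was at 253 and 193 CPM, 1.31-fold (1.22 to 1.42). B cell-like cells were counted as higher, with 54.0 and 29.1 CPM, but from 123 and 16 UMIs, and the interval of that ratio of 1.85 runs over 1.10 to 3.34.

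Itga5 (chr15:103344286-103366763, minus strand), which binds fibronectin together with Itgb1, ranked the classes much as Itgb1 did. It had 182 CPM with DHT and 179 CPM with Vehicle in macrophage-like cells (ratio 1.02, 0.986 to 1.05), 85.2 and 83.3 in osteoclast-like cells and 28.2 and 25.7 in neutrophil-like cells. In neutrophil-like cells it was again set by cluster 6, at 89.2 and 85.9 CPM, beside 11.1 and 7.09 in cluster 7. Positive cells after thinning were 54.3% and 56.0% of macrophage-like and 31.6% and 32.4% of osteoclast-like cells, above the 4.83% and 6.00% of B cell-like cells.

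Itga4 (chr2:79255426-79333123, plus strand), the subunit that recognises VCAM-1, was lowest in neutrophil-like cells, at 12.8 CPM with DHT and 14.9 CPM with Vehicle. It stood at 323 and 304 CPM in B cell-like cells, at 161 and 161 CPM in osteoclast-like cells (ratio 0.999, 0.976 to 1.02) and at 61.4 and 73.4 CPM in macrophage-like cells (0.836, 0.794 to 0.880). Dendritic cell-like cells were counted as higher: 336 CPM with DHT and 166 CPM with Vehicle, 2.02-fold (1.88 to 2.18), from 1599 and 1240 UMIs. They were 142 DHT and 201 Vehicle cells, with a median of 8 and 4 Itga4 UMIs per cell, and 25 and 34 cells held 50% of the UMIs. After thinning, 65.5% and 52.0% of them were positive, and without thinning 88.7% and 87.6%. The end of Itga4 overlaps Cerkl on the opposite strand, with the same limit as for Itgav.

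Itga4 and Itgb1 were seen in the same cell in 29.3% of DHT and 31.7% of Vehicle osteoclast-like cells after thinning, and in 38.8% and 31.6% of dendritic cell-like cells.

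Cd44 (chr2:102811141-102901665, minus strand), the hyaluronan receptor, had similar levels in the groups at the top of its order. Macrophage-like cells had 635 CPM with DHT and 591 CPM with Vehicle (ratio 1.07, 1.06 to 1.09), osteoclast-like cells 601 and 571 (1.05, 1.04 to 1.07), cluster 2 had 663 and 630 and cluster 1 had 589 and 576. Neutrophil-like cells had 491 and 438 CPM (1.12, 1.09 to 1.16), monocyte-like cells 378 and 357, dendritic cell-like cells 273 and 274, progenitor-like cells 250 and 229 and B cell-like cells 128 and 137. Osteoclast-like cells and cluster 1 changed places between the libraries, so their order is not set by these values. In all 10 compared groups, with cluster 4 at 364 and 338 CPM, the ratio lay within 0.939 and 1.12. Thinned cells with a Cd44 UMI were 91.1% and 90.9% of osteoclast-like, 91.3% and 92% of macrophage-like and 87.1% and 80.3% of neutrophil-like cells.

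Other integrin subunits were mostly low: of 17 listed, 5 reached 2 CPM in all cells. Itgal, the CD11a partner of Itgb2, was counted as higher with DHT (39.4 and 25.1 CPM, 1.57-fold), and Itgb7, a partner of Itga4, as lower (50.6 and 76.5 CPM, ratio 0.662). They were 1 of 3 alpha subunits and the 1 beta subunit at 20 CPM or more, where 5.48% of all genes were counted as higher and 0.178% as lower. Neither passed the rule in osteoclast-like, macrophage-like or neutrophil-like cells. Itgal was at 52.6 and 42.8 CPM in macrophage-like cells and 77.5 and 58.0 in neutrophil-like cells. Itgb7 was at 69.8 and 78.6 CPM in osteoclast-like cells and 60.1 and 73.0 in macrophage-like cells. In neutrophil-like cells no listed beta subunit reached 20 CPM, so Itgb7 could not be counted there. The 1 listed beta subunit over 2 CPM in them had a log2 ratio of -0.65. In osteoclast-like, macrophage-like and neutrophil-like cells 1.04%, 3.66% and 2.19% of all genes were counted as higher, and 0%, 1.57% and 0.254% as lower.

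Of 36 genes of integrin activation and the adhesion complex, 31 reached 20 CPM in all cells, 3 were counted as higher (all genes, 5.48%) and 0 as lower. These were Zyx, an actin-binding protein of focal adhesions (39.4 and 22.1 CPM with DHT and Vehicle), Rasgrp2, which activates Rap1 (27.3 and 13.5), and Parvg, a parvin of blood cells (26.5 and 15.2). In osteoclast-like cells 0 of 28 passed in either direction (all genes, 1.04% and 0%), in macrophage-like cells 0 of 29 (3.66% and 1.57%) and in neutrophil-like cells 0 of 28 (2.19% and 0.254%). The highest ratios in osteoclast-like cells were those of Src, the kinase of the osteoclast sealing zone (109 and 87.2 CPM), and Parvb (159 and 137, 1.16-fold), and the lowest those of Tyrobp (896 and 1011, 0.887) and Itgb1bp1 (36.8 and 39.6, 0.930). The list's median log2 ratio there was 0.07, beside 0.05 for all genes over 2 CPM.

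Among ligands and matrix, 4 of 8 were counted as higher in all cells: Thbs1 (104 and 30.4 CPM), Vcam1 (26.5 and 9.18), Fn1 (84.6 and 39.9) and Spp1, osteopontin (1169 and 749), beside 5.48% of all genes. In osteoclast-like cells 0 of 5 passed (all genes, 1.04% higher), with Spp1 at 284 and 304 CPM. In macrophage-like cells 2 of 7 passed, Thbs1 (26.2 and 6.74) and Fn1 (89.2 and 47.2), beside 3.66% of all genes, and in neutrophil-like cells 1 of 6, Tgfbi (43.3 and 24.3), beside 2.19%. Fn1 is also one of the 8 monocyte markers.

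The partners of Cd44, with hyaluronan and shedding enzymes, gave 3 of 14 counted as higher in osteoclast-like cells: Cd74, the invariant chain (190 and 99.1 CPM), Mmp9, which docks on Cd44 (721 and 419), and Mmp14, a protease that cleaves it (403 and 260), beside 1.04% of all genes. In macrophage-like cells Mmp9 (324 and 88.8 CPM), Lgals9 (82.3 and 25.3), Cd74 (83.2 and 26.8) and Mmp14 (320 and 143) were counted as higher and Hmmr, a hyaluronan-binding gene of cycling cells (45.8 and 92.6), as lower, of 13, where 3.66% and 1.57% of all genes were. In neutrophil-like cells 1 of 12 passed, Lgals9 (62.8 and 37.8), beside 2.19% of all genes, and in all cells 4 of 15, beside 5.48%, among them Lgals9 (42.8 and 13.2), Srgn (194 and 96.5) and Mmp9 (410 and 225). Tetraspanins, which sit beside integrins in the membrane, gave 0 of 8 in all cells (all genes, 5.48% higher and 0.178% lower) and 0 of 8 in osteoclast-like cells (1.04% and 0%). So Cd44 itself kept close to a ratio of 1 in classes where proteases of this list did not.

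Likeness of pattern was measured as Pearson's r of log2(CPM + 10) over 20 points, the 10 compared groups in both libraries, among 8617 genes. The points of a library share its depth and free RNA, and r is given as a description. Itgam was most like Plaur (0.965), Slc16a3 and G6pdx, and Itgb2 most like Pirb (0.969), Lilr4b and Slc16a3. Between members the closest were Itgb1 with Itga5 (0.965) and Itgam with Itgb2 (0.856). The least alike were Itgam and Itga4 (-0.808).

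Itgav was most like Llgl1 (0.965), Prdm1 and Ppp2r3a, and its nearest member was Cd44 (0.610). Itgb3, its osteoclast partner, was least like Itga5 (-0.676), had no member closer than Itgam (0.113) and was most like Sun2 (0.933) and Stxbp5. Itgb5 was most like Snx24 (0.954), Soat1 and Rbpj. Itgax was most like Zfp366 (0.957), Lpar3 and Zbtb46, the last a marker used to name the dendritic cell-like class. Itgb1 had Pkp4 (0.945), Fam102b and Marveld1, Itga5 had Cdk14 (0.966), Plxna1 and Stx12, Itga4 had Maco1 (0.966), St3gal3 and Nrip1, and Cd44 had Itpripl2 (0.943), Pam and Fnip2. Itga5 with Itgb1 and Itgam with Itgb2 were thus near each other in pattern, and Itgav with Itgb3 (-0.435) was not. Other pairs were less close: Itgax with Itgb2 had 0.503, and Itga4, which also pairs with Itgb1, had no member closer than Itgav (0.344). The Itgb3 pattern is one of low levels, which in osteoclast-like and progenitor-like cells rest on few cells.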

How the data were processed

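The authors deposited, per library, raw UMI counts per gene and barcode, which Cell Ranger 7.0.1 had made, per the submitters' processing notes and the file headers. The builds GRCh38 and mm10 are both named in those notes, their use is not. Use of strand and of intronic reads is not given in the sources used here. Positions came from GENCODE M21 (GRCm38, 99.6% of identifiers matched) and promoter sequence from RefSeq. Barcodes with under 300 genes, under 800 UMIs or over 10% mitochondrial UMIs were removed. Scrublet, run through scanpy 1.11.5, called 203 DHT and 156 Vehicle doublets (2.57% and 1.78%), which were removed. Leiden clusters (leidenalg 0.10.2, resolution 0.6, 2000 variable genes, 30 components) were named by at least 1 marker among the 10 leading genes and at least 3 markers, and 50% of the list, over 2-fold, a rule chosen after the clusters were seen. No cluster with a median under 2000 UMIs was named.

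Ratios have exact conditional binomial intervals, levels exact Poisson and shares exact Clopper-Pearson intervals, at 95%, and a share of 0 allows up to 3 cells. No p-value was made, since the cells of 1 library are not replicates. The ratio and interval steps were tested on simulated data. All 10 members are named. Of other lists, genes past 1.5-fold and the most extreme ratios are named. The members, the lists and the rules were chosen with earlier results of these data known. Alternatives were other scalings, filters, thinning, clusterings and subtraction of free RNA. Python 3.11.15, numpy 2.4.6, scipy 1.17.1, pandas 2.3.3 and matplotlib 3.10.9 were used. Genes withheld from this text are not reported here, although counts over lists include them.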

Additional observations from a re-analysis of the deposited data

How the results depend on the processing

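The number of members past 1.5-fold was small under every setting run. In all cells it was 1, against 0 under TMM and under median of ratios scaling, and 2 without the filter on low values or with the lower fold limit. In osteoclast-like cells it was 0, against 1 (Itgb3) with a minimum of 5 CPM or none. In macrophage-like cells it was 0, against 1 (Itgax, lower) with a minimum of 5 CPM or none. It was also 1 (Itgam, higher) with CPM averaged over cells, the deeper library thinned, the lower fold limit, free RNA subtracted, a mitochondrial limit of 5%, Leiden resolution 1.0, or without the 5 cells with most UMIs of the gene. In neutrophil-like cells it was 0, against 1 (Itga4, lower) with no doublet removal. The other settings gave counts equal to these. Under other limits on cells or doublets, cells were clustered and named anew, so a class did not hold the same cells throughout. Leaving out the 5 cells with most UMIs, counting clusters 1 and 2 as osteoclast-like and counting cluster 4 as macrophage-like were chosen after seeing the data. Of 40 member ratios in these 4 groups of cells, 24 kept their sign under every setting. Scaling moved log2 ratios by at most 0.08. No paired analysis was possible because each group has 1 sample. With 1 library per group, a difference between cultures cannot be told apart from DHT, and low genes (Itgb3, Itgax) rest on few molecules.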

Other observations

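The clusters described here were too small for the comparisons above. Mesenchymal stromal-like cells (25 DHT and 12 Vehicle cells) had 842 and 749 CPM of Itgb1, 412 and 342 CPM of Itga5, 113 and 107 CPM of Itgb5 and 55.3 and 82.4 CPM of Itgb3, and their Itgam was at 41.7 and 39.9 CPM. In each of these 4 matrix receptor genes both libraries lay above every compared class, but on few cells. Without the 5 cells with most UMIs of the gene, Itgb3 was at 27.2 and 4.65 CPM, from 27 and 1 UMIs. Itgb5 was then at 74.3 and 37.2 CPM and Itga5 at 203 and 125 CPM. Itgb1 was then at 651 and 501 CPM. Those 5 are a larger part of the 12 Vehicle than of the 25 DHT cells. No rank among the compared classes is read from these levels, since the class levels include their top cells. Plasmacytoid dendritic cell-like cells (19 and 15) had 58.5 and 106 CPM of Itgax, from 19 and 21 UMIs, and 123 and 91.3 CPM of Itga4, from 40 and 18 UMIs.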
